A study of Mus musculus with 6 samples.

Results

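The mouse minichromosome maintenance (MCM) family was examined as 10 genes, matched by symbol among the 55565 genes of the deposited tables. The members were the 6 replicative helicase subunits Mcm2, Mcm3, Mcm4, Mcm5, Mcm6 and Mcm7, the paralogues Mcm8 and Mcm9, the initiation factor Mcm10, and Mcmbp, whose product binds MCM proteins. All 10 were listed and all 10 had counts in every library. RNA sequencing of mouse embryonic fibroblasts (MEFs) was compared between 3 wild-type libraries, Mcm8+/+ (WT), and 3 Mcm8 knockout libraries, Mcm8-/- (KO). The comparison asks whether loss of MCM8 was accompanied by any change in the transcripts of the other MCM genes, and how the level of each member stood against the replicative MCM2-7 set.

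Both groups of MEFs came from trunks of embryos at day 13.5, with heterozygous parents whose background mixed C57BL/6J with ICR. The cells of both groups had been immortalised with a lentivirus carrying SV40gp6 and selected with puromycin. The KO allele was made with CRISPR-Cas9 by removing exon 7 of Mcm8. The RNA was described as coming from biological repeats, but it is not stated whether each repeat was a separate embryo or culture, so the p-values measure the spread between these libraries and that spread may be technical. The libraries held between 12722979 and 21022755 counts. All 10 fibroblast marker genes were detected, with a summed level of 20048 to 22005 CPM, the count scaled to a fixed library size, across WT libraries, while KO libraries held 20939 to 21571 CPM. Single markers differed, with 2 of the 10 higher and 4 lower in KO in edgeR's test, among them Thy1 at 49.1% and Pdgfrb at 59.9% of WT. Of the 4 germ cell markers, 2 were at 0 in all libraries, and their sum reached at most 0.215 CPM. The groups also differed outside the family. Xist averaged 1196 CPM among WT libraries but 481 CPM among KO libraries, all 4 Y-linked genes examined were higher in KO, and Msln averaged 2.88 CPM among WT and 44.9 CPM among KO libraries. Msln was the only gene called of the 4 mesothelial markers, whose sum ran from 2.95 to 3.35 CPM in the WT libraries and from 43.2 to 48.7 CPM in the KO libraries. The 4 epithelial markers summed to at most 1.10 CPM in a WT library and to between 5.53 and 6.56 CPM in the KO libraries, with Krt8 and Krt18 called as higher. Of the 3 neural markers, Sox2 and Tubb3 were called as higher, and the sum reached at most 22.3 CPM in a WT library and 34.9 CPM in a KO library, without overlap between the groups. The part of these differences between the cultures in the member values was not tested. In bulk RNA, fewer cells that express a gene and less of its RNA per cell cannot be told apart.

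As background, MCM2 to MCM7 form a ring of 6 different subunits that is loaded onto replication origins in G1 by the origin recognition complex, CDC6 and CDT1. In S phase, CDC45 and the GINS complex join the ring, and the resulting helicase unwinds DNA ahead of the polymerases. MCM8 and MCM9 form a separate complex that acts in homologous recombination and is known above all for its need in germ cells. MCM10 has no helicase domain of the MCM type and takes part in activating the loaded helicase, while MCMBP assists the assembly and handling of MCM subunits. The replicative MCM genes are textbook targets of E2F transcription factors, which act at the entry into S phase.

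Mcm8, the gene that was targeted, was the member whose transcripts fell. Its raw counts were 176, 233 and 238 in the WT libraries and 89, 74 and 66 in the KO libraries. In FPKM, the fragments per kilobase of gene length and library size that the authors computed, Mcm8 stood at 3.71, 4.46 and 3.40 in WT and at 1.12, 1.19 and 1.10 in KO. All 3 KO libraries lay below all 3 WT libraries. The log2 fold change of KO against WT was -1.75 (SE 0.158, 95% interval -2.06 to -1.44), with an adjusted p of 4.45e-26 in edgeR's quasi-likelihood test, so that 29.7% of the WT level remained (n = 3 per group).

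The exon removed in the KO is shown because it bears on what the remaining Mcm8 counts can hold. In the principal Mcm8 transcript of the GENCODE M21 annotation, exon 7 of 19 lies on the plus strand at chr2:132823175-132823373 of GRCm38 and is coding throughout.
Mcm8 exon 7: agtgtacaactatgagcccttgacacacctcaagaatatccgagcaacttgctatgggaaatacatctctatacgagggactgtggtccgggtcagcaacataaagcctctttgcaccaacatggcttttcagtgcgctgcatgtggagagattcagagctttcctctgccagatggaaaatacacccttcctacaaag
The exon is 199 bases long, which leaves a remainder of 1 after division into codons. The intact transcript reads through 833 codons before its stop. Without exon 7, the same reading frame holds 216 codons and meets a stop in exon 8, after 189 whole codons that precede the deletion. Exon 7 makes up 5.35% of the gene length of 3718 bases that the deposited table gives. The fitted count in KO was 29.7% of that in WT, and the cause of this fall was not tested. The counts are sums over the whole gene, so exons could not be counted separately.

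**Figure D1:**
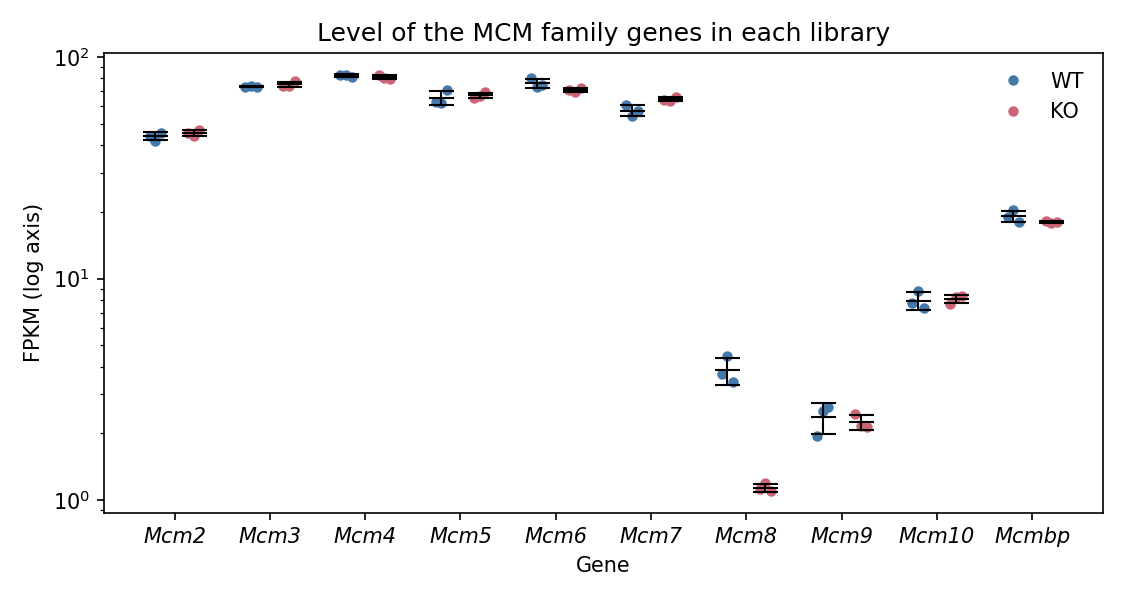
Level of the 10 MCM family genes in each library, in FPKM on a log axis. Each point is 1 library (3 WT, 3 KO), and the bars mark the mean ± SD of each group. The 6 replicative genes sit between 42.0 and 83.2 FPKM in all libraries, and Mcm8 drops from 3.40 to 4.46 FPKM in WT to 1.10 to 1.19 FPKM in KO.

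None of the other 9 members passed the test. Of the 10 members, 1 was lower at an adjusted p below 0.05 in edgeR's quasi-likelihood test and 0 were higher. Among all 26898 genes tested, 9.00% passed in either direction, 4.97% as higher and 4.03% as lower in KO, and 17.0% passed among the genes with a mean of at least 1 CPM, a range that holds all members. With a change of more than 2-fold also required, Mcm8 was still the single member called, against 2.42% of all genes. The single call by either rule was the targeted gene, so the count says nothing further about the family. The median log2 fold change of the 10 members was 0.0014, beside 0.012 for all genes tested. For the 9 members other than Mcm8, the 95% intervals of the log2 fold change reached from -0.29 at the lowest to 0.31 at the highest, which corresponds to 0.819 to 1.24 times the WT level.

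**Figure D2:**
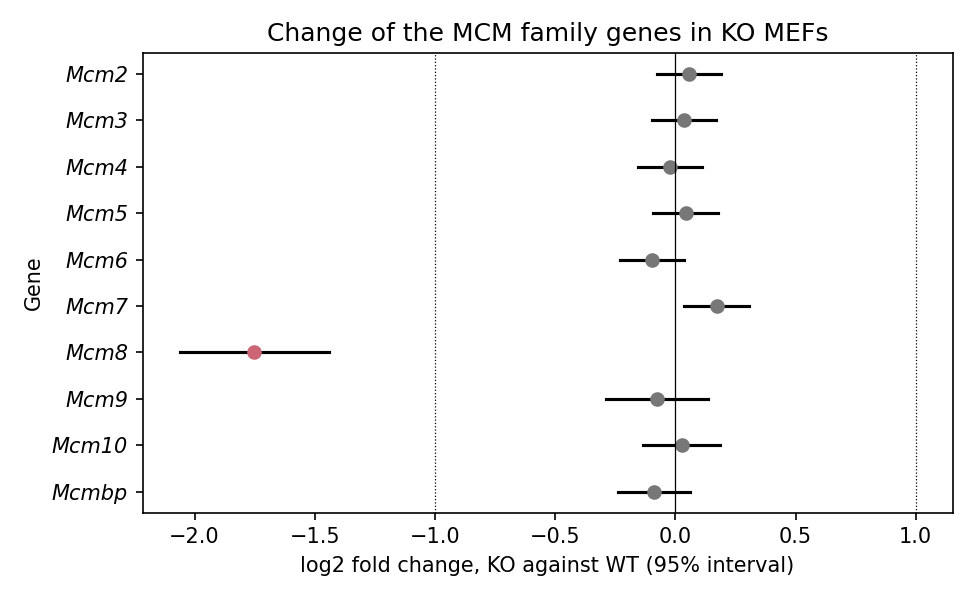
Log2 fold change of each MCM family gene in KO against WT. Points are edgeR estimates from 3 WT and 3 KO libraries, bars are 95% intervals, and the dotted lines mark a 2-fold change. Mcm8 lies at -1.75 and the other 9 members lie between -0.10 and 0.17.

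The replicative subunits MCM4, MCM6 and MCM7 form the core of the ring that has helicase activity by itself in biochemical assays. Mcm4 stood at 83.2, 83.2 and 80.8 FPKM in WT and at 82.7, 80.7 and 79.8 FPKM in KO. The groups overlapped, and the log2 fold change was -0.023 (SE 0.068, adjusted p = 0.892, edgeR).

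Mcm6 stood at 80.2, 73.0 and 74.4 FPKM in WT and at 70.9, 69.2 and 72.6 FPKM in KO. Each KO library was lower than each WT library, with the highest KO value close to the lowest WT value. The log2 fold change was -0.097 (SE 0.067, interval -0.23 to 0.036) and did not pass the test (adjusted p = 0.497, edgeR).

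Mcm7 stood at 60.8, 54.1 and 57.0 FPKM in WT and at 64.0, 63.4 and 66.0 FPKM in KO. Here the KO libraries were all above the WT libraries. Its log2 fold change of 0.17 (SE 0.069, interval 0.037 to 0.31) was the highest of the family, but its adjusted p was 0.110 in edgeR. Without WT replicate 1, the highest of the WT libraries for Mcm7, the log2 fold change was 0.21 (adjusted p = 6.92e-05, edgeR). Whether Mcm7 was called thus rests on that library. Calls also rose in general without it, to 23.4% of the genes with a mean of at least 1 CPM, from 17.0% with all libraries.

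MCM2, MCM3 and MCM5 complete the ring, and MCM2 and MCM5 border the gate through which DNA enters it. Mcm2 stood at 43.9, 42.0 and 45.6 FPKM in WT and at 45.5, 44.2 and 47.0 FPKM in KO, with overlapping groups and a log2 fold change of 0.057 (SE 0.068, adjusted p = 0.684, edgeR). Mcm3 averaged 73.3 ± 0.260 FPKM in WT and 75.1 ± 2.15 FPKM in KO (SD, n = 3), a log2 fold change of 0.036 (SE 0.069, adjusted p = 0.817, edgeR). Mcm5 averaged 65.1 ± 4.73 FPKM in WT and 67.1 ± 1.86 FPKM in KO, a log2 fold change of 0.044 (SE 0.069, adjusted p = 0.762, edgeR). For each of these 3 subunits the difference was smaller than its standard error, and for Mcm5 the KO libraries lay inside the WT range.

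Mcm9 encodes the partner of MCM8. It stood at 1.94, 2.54 and 2.63 FPKM in WT and at 2.46, 2.16 and 2.15 FPKM in KO, so that the KO values fell within the WT range. The log2 fold change was -0.075 (SE 0.109, interval -0.29 to 0.14, adjusted p = 0.731, edgeR), the widest interval among the 9 members that did not pass.

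Mcm10 stood at 7.73, 8.76 and 7.39 FPKM in WT and at 7.69, 8.29 and 8.31 FPKM in KO, again with the KO values inside the WT range (log2 fold change 0.026, SE 0.082, adjusted p = 0.900, edgeR). Mcmbp stood at 18.9, 20.3 and 18.0 FPKM in WT and at 18.1, 17.7 and 17.9 FPKM in KO. The groups met at WT replicate 3 and KO replicate 1, and the log2 fold change was -0.089 (SE 0.076, adjusted p = 0.607, edgeR).

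By CPM, the WT and KO libraries did not overlap for 4 of the 10 members, Mcm3, Mcm6, Mcm7 and Mcm8. This separation was common in the data, since 34.1% of the 13222 genes with a mean of at least 1 CPM showed it.

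The summed level of MCM2-7 differed between the groups by less than the spread of the libraries. The 6 subunits added up to 404.0, 388.1 and 401.5 FPKM in WT and to 402.5, 398.0 and 412.1 FPKM in KO. The means were 397.8 ± 8.51 and 404.2 ± 7.17 FPKM (SD, n = 3), so the KO sum was 101.6% of the WT sum (exact permutation test, two-sided, p = 0.5). With 3 libraries against 3, the smallest p this exact test can give is 0.1.

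Within the WT libraries the family spread over more than an order of magnitude per kilobase. Mcm4 was the highest at 82.4 FPKM, followed by Mcm6 at 75.9 and Mcm3 at 73.3, which overlapped each other. Mcm5 at 65.1, Mcm7 at 57.3 and Mcm2 at 43.8 FPKM came next, each apart from its neighbour in all libraries. Mcmbp at 19.1, Mcm10 at 7.96, Mcm8 at 3.86 and Mcm9 at 2.37 FPKM followed, again without overlap. In KO, Mcm8 moved from ninth place to the last, below Mcm9, and Mcm3 stood above Mcm6. Mcm5 and Mcm7, separate in WT, overlapped in KO.

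The order of the replicative genes depended on the length by which counts were divided. The deposited length adds all exons of a gene, and for Mcm2 it is 6956 bases against 3371 for the principal GENCODE M21 transcript, a ratio of 2.06. The ratio was 1.60 for Mcm6, 1.49 for Mcm7 and 1.00 for Mcm4. Rescaled to the principal transcript, Mcm6 was the highest in WT at 121.6 FPKM. Mcm3 at 90.8, Mcm2 at 90.4, Mcm7 at 85.6, Mcm4 at 82.4 and Mcm5 at 76.9 FPKM each overlapped the next. Mcm2, the lowest of the 6 by the deposited length, was thus the third by the other. The highest subunit exceeded the lowest by 1.88 times in WT and 1.78 times in KO by the deposited length, and by 1.58 and 1.43 times by the principal transcript. Mcm8 and Mcm9 were at 4.51 and 4.44 FPKM in WT on that scale, and their ranges overlapped. Differences between WT and KO for a single gene are not affected by this choice.

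The shares of Mcm6 and Mcm7 in the summed MCM2-7 level did not overlap between the groups, but no share passed a test. Mcm6 made up 19.8%, 18.8% and 18.5% of the summed MCM2-7 FPKM in WT and 17.6%, 17.4% and 17.6% in KO, a difference of -1.53 percentage points. Mcm7 made up 15.1%, 13.9% and 14.2% in WT and 15.9%, 15.9% and 16.0% in KO, a difference of 1.56 percentage points. For both, the libraries of the groups did not overlap, and the exact permutation test gave its smallest possible p of 0.1 (0.30 after Benjamini-Hochberg adjustment over the 6 subunits). A count of 2 in 6 is close to the background, since 33.7% of the genes with a mean of at least 1 CPM did not overlap when divided by the summed MCM2-7 FPKM. Without WT replicate 3, the shares of 5 subunits did not overlap, beside 44.0% of those genes. The shares of the other 4 subunits overlapped. Mcm2 held 11.0% in WT and 11.3% in KO, Mcm3 18.4% and 18.6%, Mcm4 20.7% and 20.1%, and Mcm5 16.4% and 16.6%, with exact p-values from 0.3 to 0.9.

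**Figure D3:**
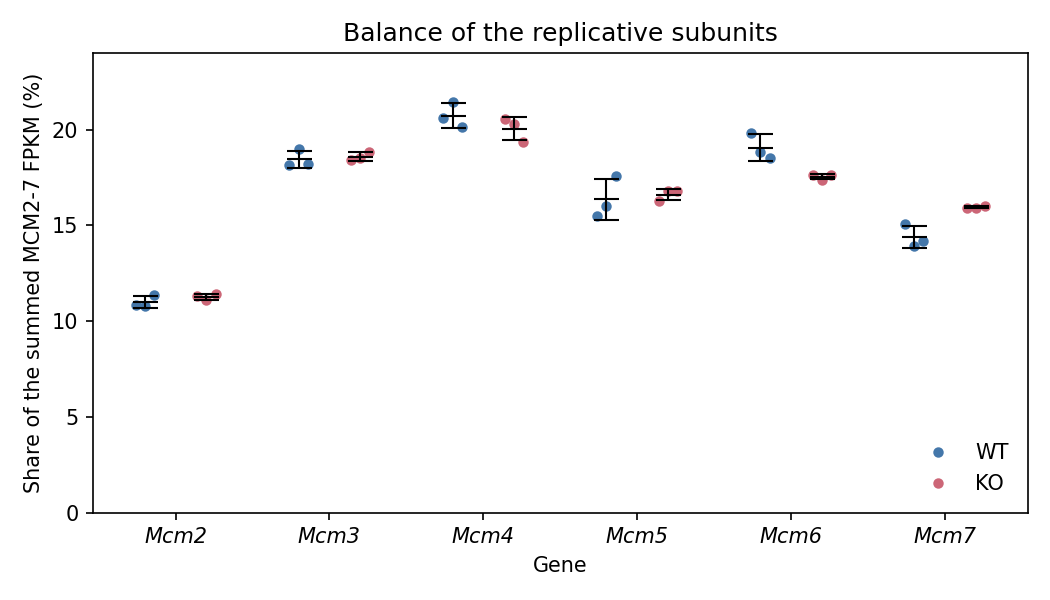
Share of each replicative subunit in the summed MCM2-7 FPKM, in percent, by library. Points are single libraries (3 WT, 3 KO) and bars mark the mean ± SD. Mcm6 lies at 19.1% in WT and 17.5% in KO and Mcm7 at 14.4% and 16.0%, both without overlap, while the other 4 subunits overlap.

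The ratio of Mcm7 to Mcm6, a pair picked after their values were seen, shows the same difference in 1 value per library. On the log2 scale it was -0.40, -0.43 and -0.39 in WT and -0.15, -0.13 and -0.14 in KO, that is, 0.755 times in WT and 0.910 times in KO. The gap between the groups was several times the SD within them (0.024 and 0.0099), and the exact permutation p was 0.1. The pair was chosen for this difference, so it is given as a description.

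Against the geometric mean of MCM2-7, Mcm8 stood at 5.91% in WT and 1.72% in KO, or 16.9 and 58.2 times below it. The log2 level relative to MCM2-7 was -4.08 ± 0.233 in WT and -5.86 ± 0.084 in KO (SD, n = 3), a difference of -1.78 (exact permutation p = 0.1, adjusted 0.25 over the 10 members). Mcm9 stood at 3.62% in WT and 3.40% in KO (difference in log2 -0.093, exact p = 0.7). By the deposited gene length, Mcm8 stood at 1.63 times Mcm9 in WT and at 0.506 times Mcm9 in KO, with the log2 ratio of the pair at 0.93, 0.81 and 0.37 in WT and at -1.13, -0.86 and -0.96 in KO. By the principal transcript, the levels of Mcm8 and Mcm9 were 4.51 and 4.44 FPKM in WT, with overlapping ranges, and 1.33 and 4.22 FPKM in KO.

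Mcm10 held 12.2% of the MCM2-7 level in both groups (exact p = 0.9). Mcmbp held 29.4% in WT and 27.0% in KO (difference in log2 -0.12, exact permutation p = 0.1, adjusted 0.25), with WT replicate 3 and KO replicate 1 almost equal at -1.87 on the log2 scale. Among the subunits themselves, Mcm6 differed by -0.13 and Mcm7 by 0.14 relative to the mean of the 6. In all, 4 of the 10 members did not overlap between the groups on this relative scale, Mcm6, Mcm7, Mcm8 and Mcmbp, against 33.8% of the 13222 genes expressed at a mean of at least 1 CPM. The count for the members is close to that background.

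Across the 6 libraries, Mcm2 and Mcm5 moved most alike among the replicative subunits (Pearson's r = 0.84 of log2 CPM). Mcm4 moved against Mcm2, Mcm3, Mcm5 and Mcm7, with r between -0.76 and -0.53, and Mcm6 had r between -0.30 and 0.38 with the others. These values describe 6 points that share library composition, over a range in which the mean log2 CPM of MCM2-7 ran only from 8.13 to 8.24. The 5 protein-coding genes most like that mean profile, among 9096 with a mean of at least 10 CPM, were Pkm (r = 0.99), Maz (0.99), Mpv17l2 (0.99), Nelfa (0.98) and B3galt6 (0.98). None of the 5 passed the test between WT and KO. They were picked for following a mean that differed little between the groups, so this was largely fixed by the choice. Another 2 rows carry minichromosome maintenance names. Mcm3ap, whose product acetylates MCM3 and takes part in mRNA export, averaged 123.7 CPM in WT and 130.8 CPM in KO (log2 fold change 0.079, adjusted p = 0.626, edgeR). Mcmdc2, a meiotic gene with an MCM domain, had at most 7 counts in any library.

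Promoter sequences are shown because the replicative genes share a regulator by textbook knowledge, and the windows allow the members to be compared base by base. RefSeq promoter windows of GRCm38.p6, from 250 bases before to 50 bases after the transcript start, were listed for 9 members, and Mcm4 had no entry. They were searched on both strands for 4 forms of an E2F-type motif of 8 bases, TTTCCCGC, TTTCGCGC, TTTGCCGC and TTTGGCGC. Of all 32851 promoter windows, 744 (2.26%) held a match. Of the 9 members, 6 did: Mcm3, Mcm5, Mcm6, Mcm7, Mcm8 and Mcmbp. Capitals mark the matched bases in the windows of 30 bases below, and a run longer than 8 holds matches on both strands that overlap.
Mcm3, minus strand, chr1:20820275-20820304: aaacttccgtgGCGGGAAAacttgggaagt
Mcm5, plus strand, chr8:75109345-75109374: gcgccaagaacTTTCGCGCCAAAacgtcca
Mcm6, minus strand, chr1:128359797-128359826: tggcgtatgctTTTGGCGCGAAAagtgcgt
Mcm6, minus strand, chr1:128359734-128359763: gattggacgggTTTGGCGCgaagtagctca
Mcm7, minus strand, chr5:138172030-138172059: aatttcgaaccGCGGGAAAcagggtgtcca
Mcm7, minus strand, chr5:138171849-138171878: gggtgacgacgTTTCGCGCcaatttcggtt
Mcm8, plus strand, chr2:132816161-132816190: gcagaagcgcgtcatagacGCGCCAAAaaa
Mcmbp, minus strand, chr7:128740436-128740465: ggtggccgcgaTTTCCCGCcattgtgagaa
Mcm5 and Mcm6 each held a longer run in which the motif was met on both strands, 153 and 110 bases before the start. Mcm6 had a second match 47 bases before the start, and Mcm7 had matches 165 bases before and 17 bases after it. The Mcm3 and Mcm8 matches lay 20 and 40 bases after the start, with another in Mcm3 39 bases after it, and that of Mcmbp 25 bases before. Mcm2, Mcm9 and Mcm10 held none of these letters in their windows. Mcm7 had 2 windows in the table, of which 1 held its matches. The log2 fold changes of the 6 members with a match were 0.036 for Mcm3, 0.044 for Mcm5, -0.097 for Mcm6, 0.17 for Mcm7, -1.75 for Mcm8 and -0.089 for Mcmbp. The shorter CCAAT sequence was present in 8 of the 9 members and in 37.4% of all promoters. A match describes letters in a window and does not show that a factor bound there.

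The genes around the members were examined because the library kit named in the methods does not mark strand, so reads from overlapping genes on opposite strands cannot be told apart. In the coordinates of the deposited tables (GRCm39), 12 genes with a mean of at least 1 CPM lay within 5 kb of a member, and 3 of them overlapped it. Mcm8 lies at chr2:132658061-132686117 on the plus strand. Its upstream neighbour Trmt6, a subunit of a tRNA methyltransferase, stood at 53.1, 47.3 and 48.5 CPM in WT and at 55.3, 58.2 and 61.3 CPM in KO (log2 fold change 0.23, adjusted p = 0.0617, edgeR). Its downstream neighbour Crls1, the cardiolipin synthase, stood at 37.6, 37.6 and 32.5 CPM in WT and at 30.7, 30.2 and 31.5 CPM in KO (log2 fold change -0.22, adjusted p = 0.162, edgeR). Neither gene passed the test.

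Mcm7 (chr5:138162845-138170684, minus strand) overlaps Cops6 at its end and Ap4m1 at its start. Cops6, a subunit of the COP9 signalosome, had a log2 fold change of 0.10 (adjusted p = 0.533, edgeR). Ap4m1, a subunit of an adaptor complex, stood at 16.5, 18.0 and 18.6 CPM in WT and at 21.3, 22.4 and 20.4 CPM in KO (log2 fold change 0.27, adjusted p = 0.133, edgeR). As for Mcm7, all KO values of Ap4m1 were above the WT values, at 19.5 CPM on average. The part of shared reads in the Mcm7 value was not tested.

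Mcm9 (chr10:53412411-53506535, minus strand) contains Asf1a, a histone chaperone gene on the other strand, which had a log2 fold change of -0.25 (adjusted p = 0.167, edgeR) at 19.9 CPM on average, similar to the 21.7 CPM of Mcm9 in WT. The gene upstream of Mcm9, Fam184a, rose from 9, 7 and 8 counts in WT to 36, 26 and 19 in KO (log2 fold change 1.47, SE 0.448, adjusted p = 0.0154, edgeR). Its level was 0.71, 0.50 and 0.43 CPM in WT and 1.70, 1.56 and 1.19 CPM in KO. Its mean of 1.01 CPM therefore met the limit of 1 CPM only through the KO libraries, where it was high. Dars, the aspartyl-tRNA synthetase gene upstream of Mcm6 (chr1:128259327-128287401, minus strand) on the same strand, fell from 130.5, 121.4 and 115.8 CPM to 101.5, 103.9 and 109.8 CPM (log2 fold change -0.22, SE 0.075, adjusted p = 0.0363, edgeR). With all libraries, these 2 of 12 neighbours passed, a share close to the 17.0% called among genes with a mean of at least 1 CPM. Neither of the 2 overlaps its member. None of the others passed, which for Mcm2 (chr6:88860456-88875762) were Tpra1 and Gm36189, for Mcm4 (chr16:15441761-15455264) Prkdc, and for Mcmbp (chr7:128298165-128342219) Sec23ip and Inpp5f. Mcm3 (chr1:20873192-20890536), Mcm5 (chr8:75836197-75855067) and Mcm10 (chr2:4994525-5017602) had no neighbour at that level.

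The factors that load and fire the MCM ring were examined as 21 genes of licensing and initiation, of which 2 fell and none rose in edgeR's test at an adjusted p below 0.05 (9.52%, beside 9.00% of all genes). The median log2 fold change was -0.044. Orc6, a subunit of the origin recognition complex, stood at 72.1, 62.4 and 59.8 CPM in WT and at 53.7, 53.0 and 54.0 CPM in KO (log2 fold change -0.27, SE 0.083, adjusted p = 0.0153, edgeR). Dbf4, which activates the kinase CDC7 that phosphorylates the MCM ring, stood at 143.0, 133.2 and 130.0 CPM in WT and at 118.7, 116.4 and 106.5 CPM in KO (log2 fold change -0.25, SE 0.074, adjusted p = 0.0119, edgeR). For both, all KO libraries were below all WT libraries. Without KO replicate 2, however, 0 genes of this list were called, while 12.4% of the genes with a mean of at least 1 CPM were. The loaders and their inhibitor gave log2 fold changes of 0.024 for Cdc6, -0.044 for Cdt1 and -0.032 for Gmnn, which encodes geminin, and Cdc45 gave -0.039. Their adjusted p-values in edgeR ran from 0.792 to 0.910.

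Of 30 genes of the fork and the replicative polymerases, 3 rose and none fell (10.0%), with a median log2 fold change of 0.011. Pcna, the sliding clamp, averaged 201.5 ± 19.4 CPM in WT and 265.1 ± 2.99 CPM in KO (log2 fold change 0.40, SE 0.070, adjusted p = 5.58e-07, edgeR). Near-identical processed copies of the gene can share its reads, and the part of such reads in this value was not tested. Chtf18, a subunit of an alternative clamp loader, averaged 47.2 ± 1.94 and 61.7 ± 5.12 CPM (log2 fold change 0.38, SE 0.084, adjusted p = 1.60e-04, edgeR). Pold1, the catalytic subunit of polymerase delta, averaged 102.3 ± 8.44 and 121.0 ± 4.16 CPM (log2 fold change 0.24, SE 0.075, adjusted p = 0.0183, edgeR).

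Among 22 genes of the MCM8-MCM9 pathway and homologous recombination, 1 fell and none rose (4.55%), with a median log2 fold change of 0.066. Hrob, whose product recruits MCM8-MCM9 to sites of repair, stood at 23.6, 24.4 and 27.1 CPM in WT and at 28.6, 29.6 and 27.6 CPM in KO. The groups of Hrob did not overlap, but the difference did not pass the test (log2 fold change 0.19, SE 0.101, adjusted p = 0.318, edgeR).

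Of 24 genes of G1/S control, 1 rose and 2 fell (12.5%), with a median log2 fold change of -0.028. The cyclin D genes Ccnd1 and Ccnd2, which drive exit from G1, fell by 0.45 and by 0.35 on the log2 scale (SE 0.073 and 0.069, adjusted p = 3.02e-08 and 1.26e-05, edgeR). Cdkn2a, the locus of the p16 and ARF inhibitors, rose by 0.26 (SE 0.067, adjusted p = 0.00244, edgeR). E2f1, which encodes a factor of the E2F family, averaged 76.3 ± 2.92 CPM in WT and 81.5 ± 1.31 CPM in KO (log2 fold change 0.095, SE 0.078, adjusted p = 0.584, edgeR). Of 19 genes of S phase and mitosis, 1 rose and 1 fell (10.5%). Plk1, a mitotic kinase, rose by 0.30 and Kif11, a spindle motor, fell by 0.24 on the log2 scale (adjusted p = 8.72e-04 and 0.0120, edgeR). Mki67, the proliferation marker, averaged 593.7 ± 99.0 CPM in WT and 577.0 ± 7.75 CPM in KO (log2 fold change -0.042, adjusted p = 0.759, edgeR). With all 6 libraries, the share called in each of the 5 lists was below the 17.0% found among genes with a mean of at least 1 CPM. Without WT replicate 1, the calls numbered 6 of 30 fork genes, 5 of 24 G1/S genes and 6 of 19 genes of S phase and mitosis, while 23.4% of the genes with a mean of at least 1 CPM were called.

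**Figure D4:**
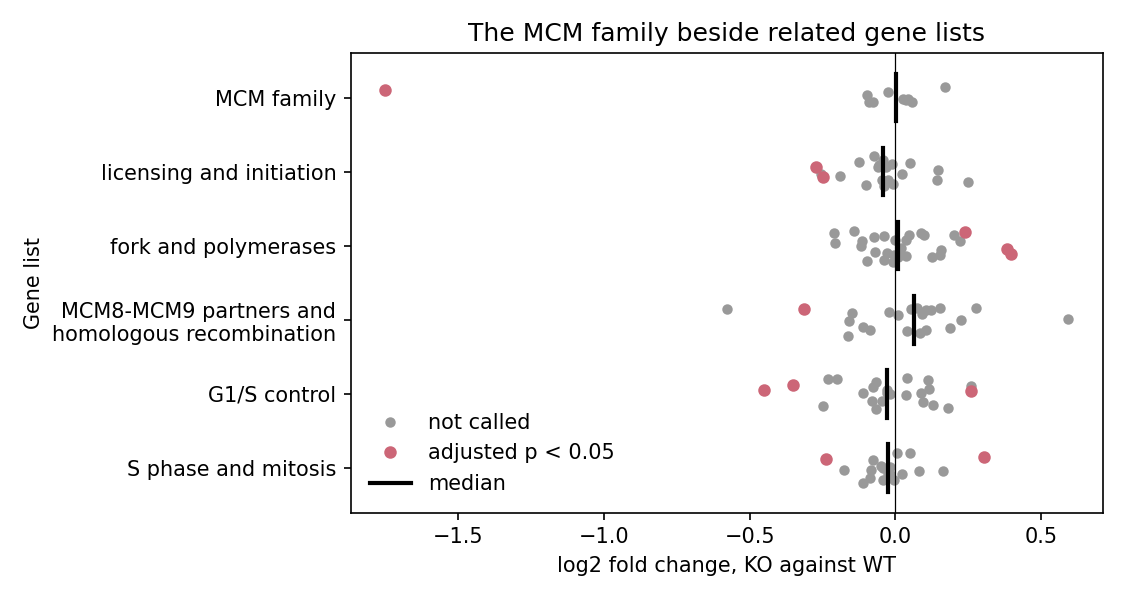
Log2 fold change in KO against WT for the MCM family and for 5 related gene lists. Each point is 1 gene, placed at random height within its row, red points passed an adjusted p of 0.05 in edgeR, and black lines are list medians. The medians lie between -0.044 and 0.066, and Mcm8 at -1.75 is the farthest point.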

How the data were processed

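Whole-transcriptome RNA sequencing of 3 WT and 3 KO MEF libraries was used. The authors made the libraries with the NEBNext Ultra kit, aligned reads with HISAT2 and counted them with featureCounts; the submitters' processing notes name HISAT2 2.0.5 and the build GRCm38. The coordinates in the deposited tables differ from GRCm38 for all 10 members while the span lengths are equal for all 10, and the Ensembl release in the paper's methods uses GRCm39, so coordinates from the tables are given as GRCm39. The strand setting of the counting is not given in the sources used here. The deposited counts are raw counts per gene. The deposited FPKM values were computed by the authors from counts and the summed exon length of each gene.

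Counts were tested with edgeR 4.0.16 (R 4.3.3) by quasi-likelihood, with TMM scaling, over all 26898 genes with at least 1 count, KO against WT, and p-values were adjusted over all of them by the Benjamini-Hochberg method. The prior degrees of freedom were infinite, so each gene took its spread from the trend, and p-values of genes that vary more than the trend are too small. CPM used TMM-scaled totals. Ratios and shares used the deposited FPKM and an exact two-sided permutation test. In data simulated for this comparison (25839 genes, 200 of them changed), all 200 were recovered with 2 false calls. The planted changes exceeded 2-fold, a call also had to pass the 2-fold threshold, and all genes were drawn with the same spread. The simulation therefore does not measure how well smaller changes are found, or the false calls at the adjusted p alone. Alternatives were DESeq2 1.42.0, limma-voom 3.58.1, a test against a 2-fold change, RLE scaling, other filters, a replicate block and leaving out each library. Promoter windows came from RefSeq (GRCm38.p6) and transcripts from GENCODE M21. The members and lists were chosen with earlier results of these data known. Described were all 10 members, up to 2 genes with the lowest and 2 with the highest fold change among those called in each list, fixed partner genes, neighbours at 1 CPM or more on average, and the 5 genes most like the MCM2-7 mean. The values of 1 gene are not reported here. Counts limit precision: members had between 66 and 7049 counts per library.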

Additional observations from a re-analysis of the deposited data

How the results depend on the processing

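Mcm8 was called as lower under every alternative run, with a log2 fold change between -1.84 and -1.64 when single libraries were left out, and it passed the 2-fold threshold each time (1 of 10 members). The size of its adjusted p depended on the filter and the test. It was 4.45e-26 in the edgeR fit reported, 2.44e-06 in edgeR with the filterByExpr filter, 1.16e-16 in DESeq2, 9.14e-07 in limma-voom and 3.91e-05 in edgeR's test against a 2-fold change. Between 1 and 2 members passed the adjusted p when single libraries were left out, the second being Mcm7 without WT replicate 1 (log2 fold change 0.21). Without that library, 23.4% of the genes with a mean of at least 1 CPM were called, against 17.0% with all libraries. Without WT replicate 3, the log2 fold changes of Mcm9 (0.015) and Mcm10 (-0.023) changed sign, both within their errors, and over single left-out libraries they ran from -0.19 to 0.015 and from -0.023 to 0.098. The Mcm8 level relative to MCM2-7 differed by -1.21 with a pseudocount of 1 FPKM, and by -1.88 to -1.65 without single libraries. The relative difference ranged over 0.015 to 0.045 for Mcm2, -0.0083 to 0.026 for Mcm3, -0.079 to -0.029 for Mcm4, -0.023 to 0.065 for Mcm5, -0.15 to -0.099 for Mcm6, 0.12 to 0.17 for Mcm7, -0.24 to -0.017 for Mcm9, -0.065 to 0.087 for Mcm10 and -0.17 to -0.056 for Mcmbp. The log2 change of the MCM2-7 sum ranged over 0.0053 to 0.034. The subunits whose shares did not overlap numbered 2 to 5, with 5 without WT replicate 3, where 44.0% of all genes with a mean of at least 1 CPM did not overlap on the same scale (33.7% with all libraries, 39.9% to 49.4% without single libraries).

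Against a 2-fold change, 0 genes of each of the 5 lists and 0 neighbours were called. With limma-voom 1 licensing gene and 1 neighbour passed, with DESeq2 1 neighbour, and among overlapping neighbours 0. Leaving out single libraries gave 0 (without KO replicate 2) to 3 licensing genes, 2 to 6 fork genes, 0 (without KO replicate 3) to 2 recombination genes, 3 to 5 G1/S genes, 1 (without KO replicate 1 or 3) to 6 S phase and mitosis genes, and 0 (without KO replicate 1 or 2) to 6 neighbours, where the counts of 6 and the 5 G1/S genes came without WT replicate 1. Among genes with a mean of at least 1 CPM, 17.0% were called with all libraries and 23.4% without WT replicate 1. Without KO replicate 1, 2 or 3 these shares were 11.6%, 12.4% and 11.8%. The cause of these shifts was not tested. Over all genes, 2420 were called, 1756 by DESeq2, 1896 by limma-voom, 200 against a 2-fold change, and 1636 to 3274 without single libraries. Replicate numbers did not pair the libraries (correlations of same-numbered deviations -0.069, -0.024 and 0.12, and replicate 3 was the single number that correlated best with itself); with a replicate block 2365 genes, 1 member and 2 recombination genes were called. Low counts limit Mcm8 and Mcm9 most. Rescaling to the principal transcript, chosen after the deposited lengths were seen, changed the order of the subunits as described above.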
